A study of Homo sapiens with 4 samples.

Results

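The miR-106b-25 cluster is a group of 3 microRNA hairpins, MIR106B, MIR93 and MIR25, that lie inside the gene MCM7 and are read from the same strand. Its Argonaute-associated regions were taken from a list made by PAR-CLIP in HEK293, a human embryonic kidney cell line. Members were the minus-strand regions of chromosome 7 that overlapped MCM7 (chr7:99690351-99699563, hg19) by at least 1 nt, and they were divided into regions at each hairpin and regions in the rest of the host transcript. Of the 211947 regions listed, 38 met this rule: 1 at MIR106B, 1 at MIR93, 2 at MIR25 and 34 in the rest of MCM7.

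In PAR-CLIP, cells take up 4-thiouridine in place of uridine, ultraviolet light joins the labelled RNA to proteins that touch it, and the RNA recovered with 1 protein by immunoprecipitation is cloned and sequenced. The series comprised 3 AGO1 libraries, from cells stably expressing His/FLAG/HA-tagged protein, grown with 200 µM 4-thiouridine and precipitated with a FLAG antibody. It also held 1 AGO2 library, from cells grown with 100 µM 4-thiouridine and precipitated with an antibody to AGO2 itself. For all 4, labelling lasted 16 h and crosslinking was done at 365 nm. Labels of the AGO2 library name no tag, although the series' design text gives a tag for AGO1 and AGO2 alike. Each region had a single score with no value per library, and which of the 4 libraries entered it is not stated. No value therefore has a replicate error, AGO1 and AGO2 could not be compared, and read depth is unknown. The score is a whole number of up to 1000 whose meaning the sources used here do not state, and no significance test was possible. Nothing in the list allows the cell line to be checked against its markers.

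A microRNA hairpin is cut from its primary transcript by Drosha and from its loop by Dicer, which leaves a duplex of a 5p and a 3p arm. Usually one arm is kept by an Argonaute protein and guides it to target RNAs through its seed, the bases from position 2 to 8. In this cluster the commonly kept arms are miR-106b-5p, miR-93-5p and miR-25-3p. MCM7, the host, encodes a subunit of the MCM helicase that unwinds DNA at replication forks. Hairpin and host share a primary transcript, so a region in the host can come from the messenger RNA, its precursor or the hairpin itself.

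The 6 mature sequences are shown because they define which bases an Argonaute protein would hold. They are written 5′ to 3′ as in RefSeq's GRCh38.p14 table, with the seed in capitals, and all lie on the minus strand of chromosome 7.
miR-106b-5p: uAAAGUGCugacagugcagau
miR-106b-3p: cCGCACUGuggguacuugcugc
miR-93-5p: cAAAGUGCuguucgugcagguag
miR-93-3p: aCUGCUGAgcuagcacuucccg
miR-25-5p: aGGCGGAGacuugggcaauug
miR-25-3p: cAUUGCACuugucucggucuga

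miR-106b-5p and miR-93-5p share the seed AAAGUGC. From base 1 they were identical at 16 of 21 positions, and their longest common run was 9 nt. This seed was carried by 8 of the 2370 mature human microRNAs in the RefSeq table, among them miR-17-5p and miR-20a-5p of chromosome 13 and miR-106a-5p and miR-20b-5p of chromosome X. miR-25-3p has the seed AUUGCAC, shared by 6 of the 2370, including miR-92a-3p, miR-92b-3p, miR-363-3p and miR-32-5p. The seeds of miR-106b-3p, miR-93-3p and miR-25-5p each occurred in that 1 mature sequence alone among those in the table. Relatives from other chromosomes are shown for the likeness beyond the seed.
miR-17-5p: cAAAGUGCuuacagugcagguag
miR-20a-5p: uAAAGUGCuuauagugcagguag
miR-92a-3p: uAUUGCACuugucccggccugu

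The hairpins themselves are printed with the bases covered by a listed region in capitals. For MIR106B and MIR25 the RefSeq hairpin had the same length as the hg19 interval, 82 and 84 nt, and was laid on it base by base. Sequence of the MIR93 hairpin was not used here.
MIR106B (chr7:99691616-99691697, hg19, minus strand): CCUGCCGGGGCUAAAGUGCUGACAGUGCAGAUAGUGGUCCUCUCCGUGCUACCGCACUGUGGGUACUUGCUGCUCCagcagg
MIR25 (chr7:99691183-99691266, hg19, minus strand): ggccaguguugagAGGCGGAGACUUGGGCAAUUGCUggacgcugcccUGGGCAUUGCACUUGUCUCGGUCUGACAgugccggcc

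All 3 hairpins carried a region of high score, and these were the 3 highest scores in MCM7. MIR93 had a score of 570, MIR106B 409 and MIR25 191, while the highest score in the rest of the host was 139. The highest scores at the hairpins thus stood in a ratio of 1.39 for MIR93 over MIR106B. Against the MIR25 region of score 191, which lay at the 3p arm alone, the ratios were 2.14 for MIR106B and 2.98 for MIR93. MIR93 and MIR106B had 1 region each over both arms, whereas the 2 regions of MIR25 summed to 209. Whether these ratios exceed the spread between libraries cannot be told without values per library. In the whole list the MIR93 region ranked 22 by score, the MIR106B region 40 and the MIR25 region 166.

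Together the 4 hairpin regions summed to 1188, against 680 for the 34 regions in the rest of the host. The hairpins therefore held 63.6% of the summed score of 1868 on 2.67% of the length of MCM7. Such sums treat scores as values that can be added, which was not tested, since what the score counts is not stated. Per nucleotide of hairpin the summed score was 7.13 at MIR93, 4.99 at MIR106B and 2.49 at MIR25. In the rest of the transcript it was 0.0758 per nucleotide. All 8967 nt of the rest were counted, with exons and introns not separated, and its regions had a summed width of 2211 nt. The hairpin regions had a summed width of 204 nt, against 246 nt of hairpin. The contrast per nucleotide therefore reflects coverage as well as the height of the scores. With scores above 100 set to 100, the share at the hairpins was 34.4%, so its size rests on the height of 3 regions.

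**Figure D1:**
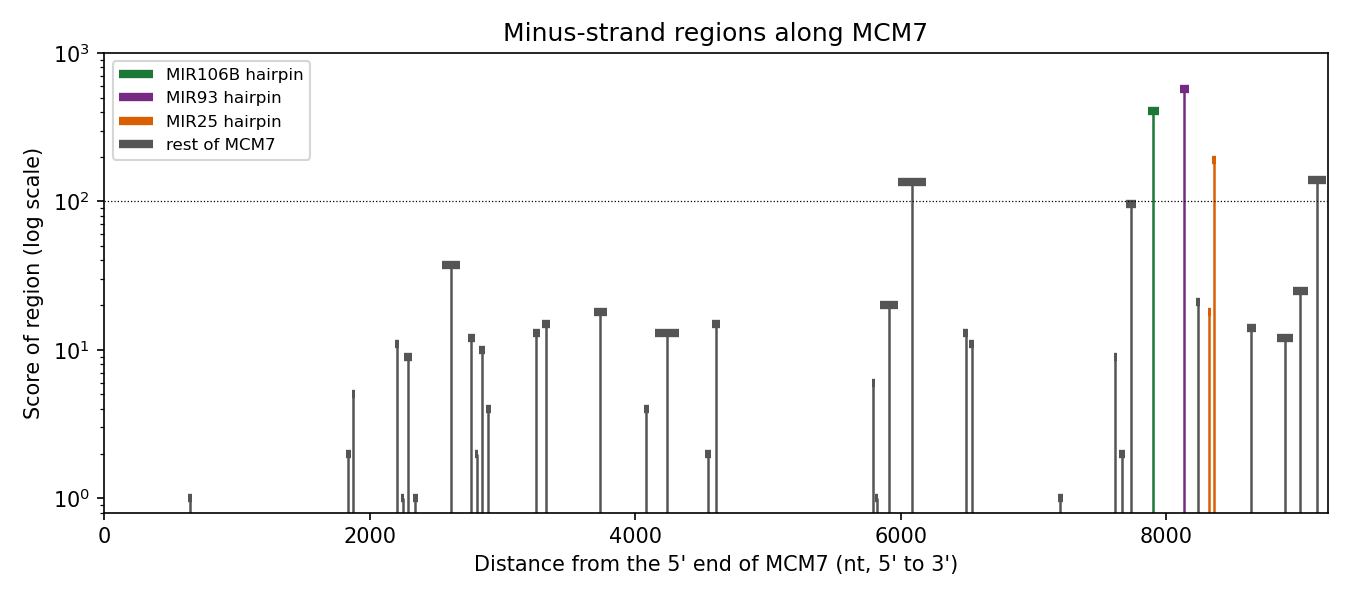
Score of each of the 38 regions (vertical axis, log scale) against its place along MCM7 in nt from the 5′ end (horizontal axis); each bar spans the width of 1 region and the dotted line marks a score of 100. The highest regions at MIR106B (409), MIR93 (570) and MIR25 (191) stand in a row near the 3′ end, above every region in the rest of MCM7.

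A single region covered nearly the whole of the MIR106B hairpin. It ran from 99691622 to 99691706 and was 85 nt wide. It began 9 nt before the 5′ end of the hairpin and ended at hairpin nucleotide 76 of 82, so that 6 nt at the 3′ end were free, as the lower-case bases in the printed hairpin show. Both arms were covered whole, the 21 nt of miR-106b-5p (hairpin nucleotides 12 to 32) and the 22 nt of miR-106b-3p (52 to 73), with the loop between them. One score for both arms means that 5p and 3p cannot be told apart here. The authors' 1-nt position inside the region fell at hairpin nucleotide 20, a U, which is base 9 of miR-106b-5p and the first base after the seed.

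MIR93 (chr7:99691391-99691470, hg19, minus strand) was also covered by a single region, of 68 nt, from 99691398 to 99691465. It left 5 nt at the 5′ end and 7 nt at the 3′ end of the 80-nt hairpin free. RefSeq places 16 nt between both mature arms, which then span 61 nt and can lie in the hairpin in 20 ways. In each of these the loop between the arms was covered whole. At least 18 of the 23 nt of miR-93-5p and at least 15 of the 22 nt of miR-93-3p were covered. The authors' inner position, at hairpin nucleotide 60, fell within miR-93-3p in all 20 ways. Like MIR106B, then, MIR93 had 1 region over both arms, but the inner position lay on the 3p arm here and on the 5p arm there.

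MIR25 differed in shape, with 1 narrow region on each arm and part of the loop, 11 nt, left free. The region at the 3p arm, from 99691192 to 99691219, was 28 nt wide and had a score of 191. It covered the 22 nt of miR-25-3p (hairpin nucleotides 52 to 73) whole, with 4 nt more at the 5′ end and 2 nt more at the 3′ end. At the 5p arm a region of 23 nt, from 99691231 to 99691253, had a score of 18. Its 5′ end fell on the first base of miR-25-5p (14 to 34), and it ran 2 nt past the last. The 3p region thus had 10.6 times the score of the 5p region, with 11 nt between them. miR-25-3p is the arm that carries the AUUGCAC seed family. Inner positions fell on base 10 of miR-25-3p and base 11 of miR-25-5p, a U in both.

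**Figure D2:**
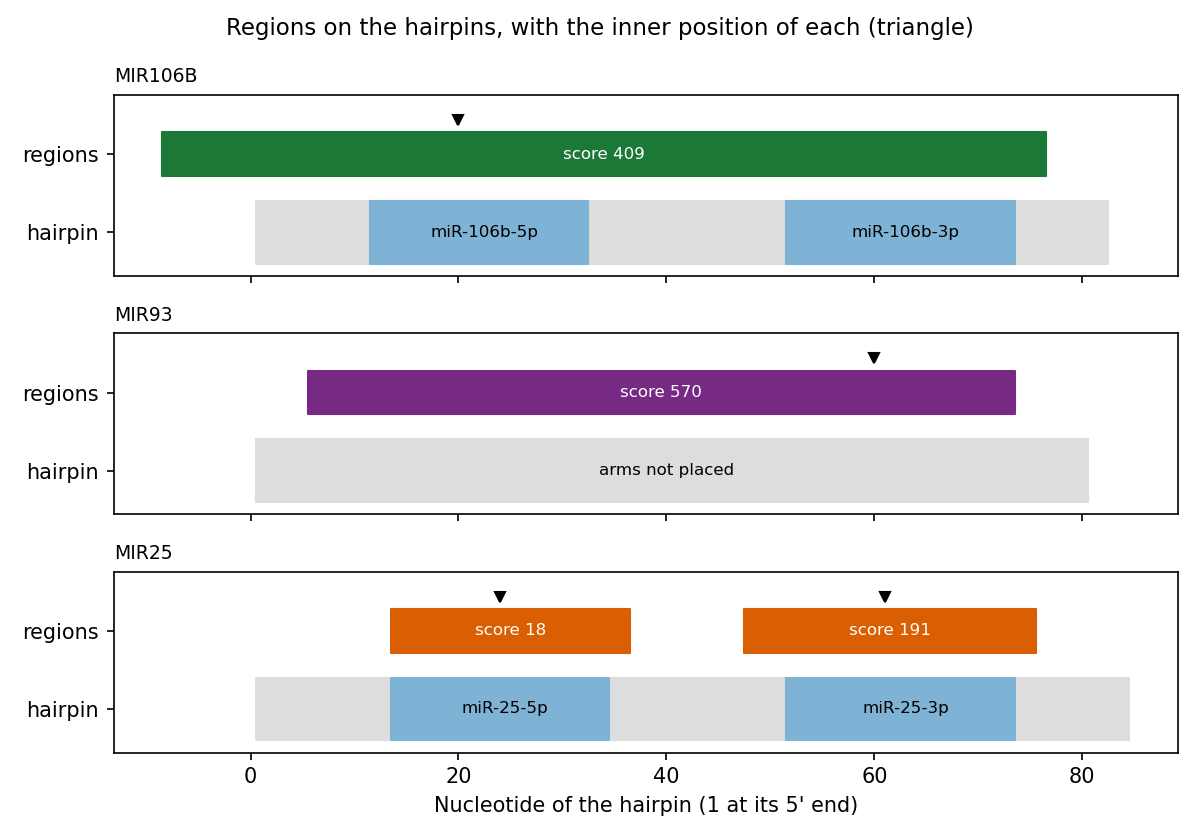
Regions (coloured, with their scores) and mature arms (blue) along the nucleotides of each hairpin, counted from 1 at the 5′ end; triangles mark the authors' inner positions. MIR106B and MIR93 each have 1 region across the hairpin, and MIR25 has separate regions of score 18 and 191 over its 5p and 3p arms.

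4-Thiouridine replaces U, so crosslinks are placed at U by the method. In the hairpins with sequence, all 3 inner positions lay on a U, whereas U made up 19 of the 76 covered bases of MIR106B, 9 of the 28 in the MIR25 3p region and 5 of the 23 in the MIR25 5p region. Moved by 1 nt toward either end, 1 of the 3 positions lay on a U. Only 3 positions stand behind this count, and it was not tested. The rule by which the authors placed these positions was not examined here, so the count describes them and shows no preference for U.

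High scores were frequent among the members relative to the list. Among the 38 regions, 5 had a score of 100 or more (13.2%, Wilson 95% interval 5.75 to 27.3), whereas 0.264% of all listed regions did. At 50 or more there were 6 members, with 0.945% of the list, and at 200 or more 2 members, with 0.0703% of the list. Of the 5 regions at 100 or more, 3 lay at the hairpins and 2 in the rest of MCM7. Wilson intervals cover counting error only, and the regions share 1 transcript and are not independent. The locus was chosen with its high scores known, so this share describes it and is no test.

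Width and score go together in the list, which makes width a needed yardstick. Among nuclear regions within 10% of its width, the MIR25 3p region was 1 of 2 out of 41745 with a score of 191 or more, and 95.5 times the median of 2. The MIR93 region was 1 of 3 out of 8406 at its score or more, and 81.4 times the median of 7. The MIR106B region was 1 of 7 out of 4606, and 37.2 times the median of 11. Even the MIR25 5p region, with its score of 18, was 9 times the median of its width, and 0.543% of such regions scored as high.

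**Figure D3:**
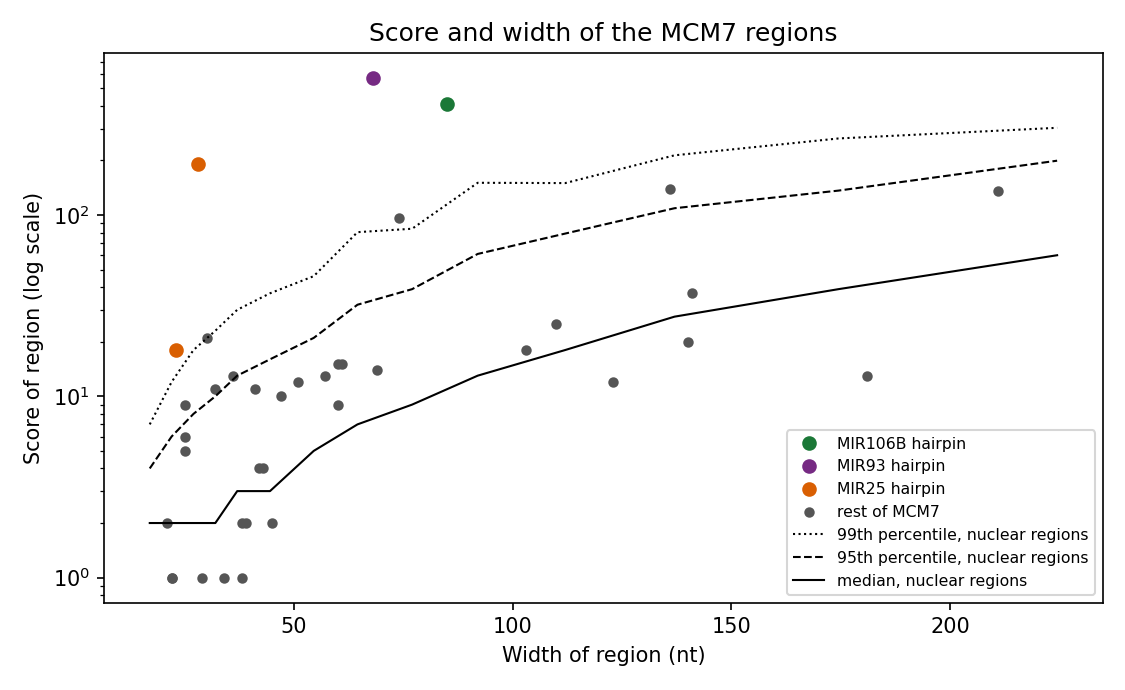
Score (vertical axis, log scale) against width in nt (horizontal axis) for the 38 regions, with the median, 95th and 99th percentile of all nuclear regions by width as lines. The 4 hairpin regions lie above the 99th percentile line of their width, and most regions in the rest of MCM7 lie below the 95th.

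In the rest of MCM7 the regions were of lower score, yet their median was above that of the list when width was left aside. Their median was 11 (interquartile range 2.5 to 15), whereas that of all listed regions was 3 (2 to 5). Scores of 1 or 2 were held by 9 of the 34 (26.5%), against 49.3% of the whole list. Scores from 11 to 50 were held by 15 of them (44.1%), against 8.78% of the list. Their median width was 44 nt, against 32 nt over the list. Set against nuclear regions of similar width, 22 of the 34 scored above the median, 6 were within the top 5% and 1 within the top 1%. Scores tie often, and the share of all nuclear regions above the median of their width is not given here. The count of 22 therefore has no yardstick.

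The highest regions outside the hairpins were broad. One of 136 nt, from 99690362 to 99690497, had a score of 139 and lay 11 nt from the 3′ end of MCM7. It was followed in the 5′ direction by regions with scores of 25 and 12, at gaps of 3 nt and 1 nt, so that 3 regions filled 373 nt at the 3′ end of the transcript. The other high region was 211 nt wide, from 99693373 to 99693583, with a score of 135 and a neighbour of score 20 at a gap of 1 nt. For this width such a score was common, since 14.0% of nuclear regions of similar width reached it, against 2.64% for the region at the 3′ end. The next highest outside the surroundings of the hairpins was a region of 141 nt (99696882 to 99697022) with a score of 37, which 36.3% of nuclear regions of similar width reached. Whether regions a few nt apart mark 1 site or several was not tested. Exons, introns and untranslated parts of MCM7 were not analysed here, as no hg19 annotation was used.

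Around the hairpins the most prominent other region lay on the 5′ side of the cluster. It had a score of 96 and a width of 74 nt (99691796 to 99691869), and was separated from MIR106B by 98 nt. This was 12 times the median of nuclear regions of similar width, and 0.726% of those scored as high. Between MIR93 and MIR25, which are 124 nt apart, there was 1 region of 30 nt with a score of 21, at 99691315 to 99691344. Between MIR106B and MIR93, which are 145 nt apart, there was none.

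Along the host the regions were unevenly spread. The 7866 nt on the 5′ side of MIR106B held 29 regions with a summed score of 469 and a median of 9, and the 832 nt on the 3′ side of MIR25 held 4 regions with a summed score of 190. That is 3.69 regions per kb on the 5′ side and 4.81 on the 3′ side. The first 629 nt from the 5′ end held no region, and only 1, with a score of 1 (99698906 to 99698934), lay before nucleotide 1820 counted from that end. Other long stretches without a region measured 1161, 1141 and 630 nt. Elsewhere regions stood close: 13 of the 37 gaps between neighbours were at most 10 nt, and the median gap was 41 nt. In all, the 38 regions covered 2415 nt, or 26.2% of MCM7.

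Few stretches of the nuclear genome held as much score as MCM7. When each strand of the autosomes and X was cut into pieces of the length of MCM7, 9213 nt, 54197 pieces held at least 1 region, with a median of 2 regions and a median summed score of 4. Of these, 0.493% held 38 regions or more, and 3 pieces (0.00554%) reached a summed score of 1868. Likewise 3 pieces held 5 or more regions that scored 100 or more. Pieces start at fixed places and can split a locus, and MCM7 was chosen with its scores known, so these shares are a description.

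The 3 high-score regions of the hairpins lay within 515 nt, from 99691192 to 99691706. This span was taken from the cluster itself, so the cluster meets it by construction and the comparison is a description. Among the 525 nuclear regions that scored 100 or more, 1 other group alone had 3 or more on 1 strand within that span. It lay on chromosome 13 (plus strand, 92002871 to 92003522), where 5 such regions were joined from overlapping sets of 3 that each fitted the span. RefSeq places miR-17-5p, miR-20a-5p and miR-92a-3p, the seed relatives printed above, on chromosome 13, but which genes lie at that group was not analysed here. The number of groups depends on the span, with 9 at 1000 nt and 11 at 2000 nt, the cluster among them in each.

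On the opposite strand of MCM7 there was little. The plus strand held 2 regions, with scores of 4 and 2, against 38 regions with a summed score of 1868 on the minus strand. The region with score 2 (99699301 to 99699323) lay 241 nt from the 5′ end of MCM7. RefSeq lists AP4M1 among the neighbouring genes, and whether this region lies inside it was not analysed here.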

How the data were processed

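The series has 4 PAR-CLIP libraries of HEK293 cells (3 AGO1, 1 AGO2), and the data analysed here were 1 list of regions with no value per library. Scores, deposited by the authors with 1 value per region, are whole numbers of up to 1000, a value that 7 regions hold, and what it counts is not stated. The other values used are genomic coordinates as deposited, on hg19 per the file headers, and are printed counting from 1. The filter name in the header includes 0.05. Per the submitters' processing notes, BWA 0.5.8c was used. Which caller made the regions, and from which libraries, the sources used here do not state.

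Coordinates of MCM7 and the hairpins were given with the choice of the locus. The members, the lists and the threshold of 100 were chosen with earlier results of these data known. All 4 genes were named, with every hairpin region, and of the rest of MCM7 the regions with a score of at least 100 and the next 3 highest, together with others that bound a gap or neighbour a hairpin. Regions of similar width were those within 10%. Sequences came from RefSeq (GRCh38.p14), from which no coordinate is printed; the 6 mature arms and the hairpins MIR106B and MIR25 were used, and the MIR93 hairpin sequence was not used here. Functions were tested on simulated regions. Depth is unknown and no test across samples was possible. Values were computed in Python 3.11.15 with pandas 2.3.3, numpy 2.4.6 and scipy 1.17.1, and plotted with matplotlib 3.10.9.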

Additional observations from a re-analysis of the deposited data

Results flagged for a closer look

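A region on the strand opposite the MIR93 hairpin was flagged because it lay in data that the comparisons did not use. It lay on the plus strand from 99691401 to 99691462, was 62 nt wide and had a score of 4, or 0.702% of the score of 570 of the minus-strand region that it overlapped over its whole width. Overlap with a region of the other strand was seen for 0.306% of 211672 nuclear regions, and for 5 of the 525 with a score of at least 100. No such region lay opposite MIR106B or MIR25. The score of 4 was below the median of 7 for nuclear regions of 60 to 69 nt. The source of this plus-strand region was not tested.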

How the results depend on the processing

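Of 25 alternatives for 8 results, 23 were planned and 2, on the span of compact groups, were added after seeing the data. The compact-group result itself was not in the plan either, and its span of 515 nt was taken from the cluster. In 19 the value stayed within 1.5 times for a count, or within a 95% interval for a share or median. Not all of these could have moved. The lowest score at the hairpins was 18, so a minimum score of 2 or 3 leaves the 4 hairpin regions unchanged by construction. In 6 alternatives the value moved. The share of the summed score at the hairpins (63.6%) was 34.4% with scores above 100 set to 100, by construction. The number of regions at the high-score threshold was 2 at 200, against 5 at 100. The share of inner positions at a U (100%, 3 of 3) was 33.3% after a move by 1 nt to either side. Compact high-score groups numbered 2 at 515 nt, 9 at 1000 nt and 11 at 2000 nt. Covered whole with certainty were 4 of the 6 mature arms, those of MIR106B and MIR25. Leaving out libraries and comparing AGO1 with AGO2 were planned and not run, since the list has no value per library. No paired analysis was possible because no column belongs to a library. The 95% interval of the summed-score share treats score units as counts, which was not tested.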
